A study of Mus musculus with 8 samples.

Results

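Kit, Stra8, Sohlh1, Sohlh2, Dmrtb1 and Neurog3 are genes of spermatogonial differentiation, and their RNA levels were examined in cultured mouse germline stem (GS) cells. They were taken by gene symbol, and each of the 6 matched 1 row of the 31010 genes in the expression table. GS cells are spermatogonia that self-renew in culture with GDNF and FGF2. The study asked whether gene expression in GS cells differs between wild-type mice on the B6 background born after intracytoplasmic sperm injection (ICSI-F1), in which a sperm is injected into an oocyte, and mice born after natural mating (control-F1). The study calls the injected sperm wild-type but took it from mice that carry an Egfp transgene. Per the study's methods, the cultures were started from CD9-expressing spermatogonia sorted from mature testes, so they are a selected population grown in culture. All cells were labelled as untreated and grew in the same medium with GDNF, FGF2, estradiol and progesterone. RNA-seq libraries came from 4 control-F1 lines (29, 37, 44 and 45) and 4 ICSI-F1 lines (11, 17, 20 and 21). The line numbers match those by which the study numbers individual F1 mice, which points to 1 mouse per line. Litters are not given in the sources used here, and the p-values measure the spread between lines.

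The sample titles had 2 styles, with words joined by hyphens (control-F1 lines 29 and 37, ICSI-F1 lines 11 and 17) or by a different character (control-F1 lines 44 and 45, ICSI-F1 lines 20 and 21, called the non-hyphen libraries here). The processing notes of the submitters name STAR 2.7.9a and HTSeq 0.13.5 for the hyphen libraries, and STAR 2.6.0c and HTSeq 0.11.2 for the non-hyphen libraries. The study's methods list the reads of all 8 libraries but name only STAR 2.7.9a and HTSeq 0.13.5. Whether the versions differed is therefore not settled. The recovered read totals were 24218897 to 26108199 in the hyphen libraries and 31786268 to 43413243 in the non-hyphen libraries. Software version, depth and any other property that goes with the title style cannot be told apart. Each style holds 2 lines of each group, so the ICSI comparison was also made within each style.

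Differentiation of spermatogonia begins when retinoic acid acts on undifferentiated cells. Kit encodes the receptor for KIT ligand (Kitl) and is the usual surface marker of differentiating spermatogonia. Stra8 encodes a retinoic acid-induced factor that is required for entry into meiosis, where it acts together with Meiosin. Sohlh1 and Sohlh2 encode germ cell basic helix-loop-helix (bHLH) transcription factors, a class that binds the DNA element called the E-box, and both are needed for Kit expression and differentiation. Dmrtb1 (DMRT6) encodes a DM-domain factor of differentiating spermatogonia that takes part in the change from mitosis to meiosis. Neurog3 encodes a bHLH factor of undifferentiated progenitors that are about to differentiate.

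The labelled cell type was checked by marker genes. The germ cell markers Ddx4, Dazl, Mael and Tex14 summed to 699 to 1025 FPKM (fragments per kilobase of exon, scaled to library size) per line. Of the markers of undifferentiated spermatogonia, Etv5 averaged 65.7, Lin28a 62.8, Zbtb16 61.8, Gfra1 54.5, Ret 54.2, Id4 12.8 and Nanos2 9.48 FPKM. Spermatocyte markers summed to 79.5 to 126 FPKM, most of it from Sycp1 (mean 64.2 FPKM), with Hormad1 at 23.1, Dmc1 at 14.0 and Spo11 at 1.91 FPKM. Spermatid markers summed to 5.42 to 12.3 FPKM, nearly all from Tnp1 (mean 8.23 FPKM). Acrv1 averaged 0.0167 FPKM, and Prm1 and Prm2 were at 0 in all 8 libraries. The 6 fibroblast markers summed to 81.1 to 450.1 FPKM in control-F1 and 116 to 251 FPKM in ICSI-F1 lines. The cultures hold feeder fibroblasts, which a step before sampling was meant to remove, but RNA of these markers remained in every line. Sertoli markers summed to 3.15 to 6.86 FPKM and Leydig markers to 0.619 to 1.87 FPKM. Kit is also a gene of mast cells and Leydig cells, so these were checked directly. Of the 4 mast cell markers, Cpa3, Mcpt4 and Tpsb2 were at 0 in all 8 libraries and Fcer1a reached at most 0.0306 FPKM. The Leydig enzyme gene Cyp17a1 was at 0 in all 8 libraries. In bulk RNA, fewer cells that express a gene and less RNA of it per cell cannot be told apart.

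The promoter windows of Sohlh1, Stra8 and Kit are shown because among the 6 genes Sohlh1 held the most E-boxes, Stra8 alone held a pair of nuclear receptor motifs, and Kit alone passed a test below. Each runs from 250 bases before to 50 bases after the RefSeq transcription start, on the GRCm38.p6 build, and is written on the gene's strand. Capitals mark E-boxes (CANNTG, which includes the palindrome CACGTG) and the nuclear receptor core motif AGGTCA, which retinoic acid receptors can bind in pairs. The Sohlh1 window is chr2:25847199-25847498 on the minus strand, the Stra8 window is chr6:34920698-34920997 on the plus strand, and the Kit window is chr5:75574737-75575036 on the plus strand.
Sohlh1: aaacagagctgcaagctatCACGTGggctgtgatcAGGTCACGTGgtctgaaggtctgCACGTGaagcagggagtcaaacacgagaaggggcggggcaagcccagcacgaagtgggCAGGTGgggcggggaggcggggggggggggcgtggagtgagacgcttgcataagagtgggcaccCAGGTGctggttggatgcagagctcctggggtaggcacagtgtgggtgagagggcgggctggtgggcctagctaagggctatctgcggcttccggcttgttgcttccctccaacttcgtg
Stra8: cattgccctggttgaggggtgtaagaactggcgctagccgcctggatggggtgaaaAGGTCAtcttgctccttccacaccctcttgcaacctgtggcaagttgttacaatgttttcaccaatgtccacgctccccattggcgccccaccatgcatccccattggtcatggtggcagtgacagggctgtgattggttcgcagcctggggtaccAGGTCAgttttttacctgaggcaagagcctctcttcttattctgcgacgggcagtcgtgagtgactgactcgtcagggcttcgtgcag
Kit: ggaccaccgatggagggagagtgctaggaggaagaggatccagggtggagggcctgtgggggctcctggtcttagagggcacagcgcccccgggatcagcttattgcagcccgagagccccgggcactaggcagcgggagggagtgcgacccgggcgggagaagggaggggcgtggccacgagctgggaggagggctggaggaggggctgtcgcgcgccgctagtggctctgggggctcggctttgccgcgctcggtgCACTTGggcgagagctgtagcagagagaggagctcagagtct

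The Sohlh1 window held 5 E-boxes, of which 3 were the palindrome CACGTG, starting at -231, -211 and -192 from the start site. An AGGTCA at -215 overlapped the palindrome at -211. Both strands were searched in 32851 mouse promoter windows of the same length, and 0.0883% of these held 3 or more CACGTG while 7.15% held at least 1. The Stra8 window held no E-box and had 2 AGGTCA, at -194 and -38. At least 1 AGGTCA was found in 16.3% of all windows and 2 or more in 1.81%. The Kit window held a single E-box, CACTTG, 8 bases after the start, and a second Kit window that begins 4 bases downstream held the same element. E-boxes were common, with at least 1 in 72.3% of windows and 3 or more in 17.6%. Sohlh2 and Neurog3 had 1 E-box each, at -241 and -165, and both Dmrtb1 windows had 3 (the map of motif positions shows all windows). The Stra8 window lies downstream of the gene start in the GENCODE annotation. A match of letters describes the window and does not show binding.

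**Figure D1:**
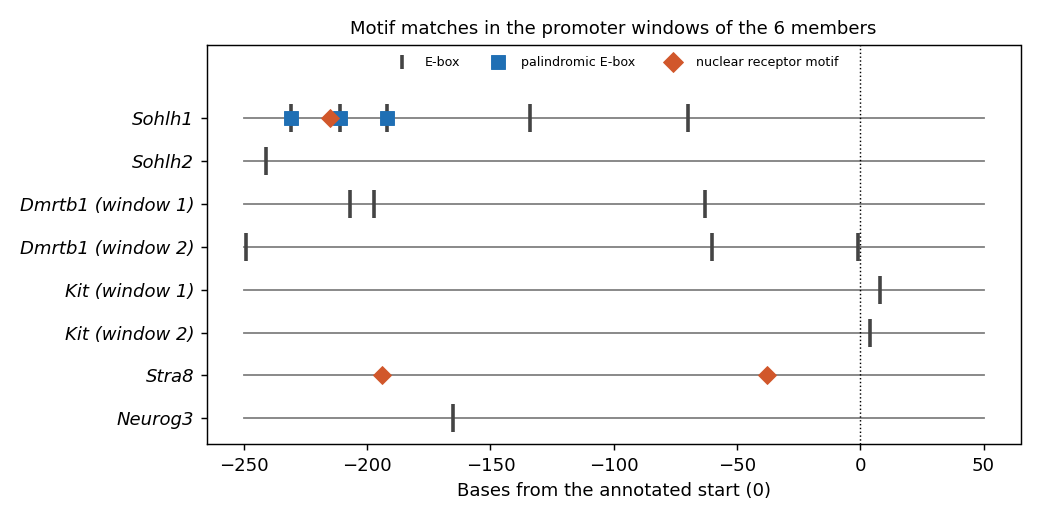
Positions of E-boxes (black bars), palindromic E-boxes (blue squares) and the nuclear receptor core motif (orange diamonds) in the promoter windows of the 6 genes, in bases from the annotated start. Sohlh1 carries 3 palindromic E-boxes, and Stra8 carries 2 nuclear receptor motifs and no E-box.

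The RNAs of the 6 genes covered a wide range in GS cells, and FPKM, which is scaled to gene length, allows levels of different genes to be set side by side. Sohlh1 averaged 120.0 ± 23.1 FPKM and Sohlh2 86.4 ± 13.9 FPKM (SD, n = 8), which placed them at the 98.1 and 96.8 percentiles of the 12000 tested genes, those that averaged 1 FPKM or more. Stra8 averaged 21 ± 11.8 FPKM, Kit 5.91 ± 2.35 FPKM and Dmrtb1 3.15 ± 0.894 FPKM (SD, n = 8). Neurog3, at 0.787 ± 0.410 FPKM (SD, n = 8), was the only one of the 6 below the mean of 1 FPKM that was required for the main tests. Thus the bHLH pair was the abundant part of the group, whereas the receptor gene Kit stood at percentile 38.8 of the tested genes. The Kit value rests on the 8911 bp to which all its annotated exons merge, and on its longest transcript of 5241 bp the mean was 10.0 FPKM.

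The order of levels was tested within lines by an exact two-sided sign-flip permutation test on log2(FPKM + 1). It was adjusted over the 5 neighbouring pairs, for which 0.00781 is the smallest unadjusted p. These pairs came from the order of mean FPKM in the same 8 lines, so the p-values are no independent support for that order. Sohlh1 exceeded Sohlh2 in 6 of 8 lines, with a mean log2 difference of 0.46 ± 0.48 (SD, adjusted exact p = 0.0488). The exceptions were control-F1 line 45 and ICSI-F1 line 20, both with non-hyphen titles, in which Sohlh2 was the higher of the pair. The Sohlh1 to Sohlh2 ratio was 1.69 to 1.80 in the hyphen lines and 0.823 to 1.54 in the non-hyphen lines. Sohlh2 exceeded Stra8 in 8 of 8 lines, by 2.19 ± 1.08 (adjusted exact p = 0.0130), and Stra8 exceeded Kit in 8 of 8 lines, by 1.53 ± 0.58 (adjusted exact p = 0.0130). Kit exceeded Dmrtb1 in 7 of 8 lines, by 0.69 ± 0.77, which did not pass the threshold (adjusted exact p = 0.0547). The Kit to Dmrtb1 ratio also split by title style, at 2.25 to 4.73 in the hyphen lines and 0.566 to 1.36 in the non-hyphen lines. Both pairs with Kit depend on the length used for it. On the length of the longest transcript, Kit exceeded Dmrtb1 by 1.23 (adjusted exact p = 0.0195) and Stra8 exceeded Kit by 0.87 (adjusted exact p = 0.0195). These are mean differences. The counts of lines given for both pairs refer to the merged exons and need not hold on the longest transcript. Dmrtb1 exceeded Neurog3 in 8 of 8 lines, by 1.21 ± 0.40 (adjusted exact p = 0.0130).

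**Figure D2:**
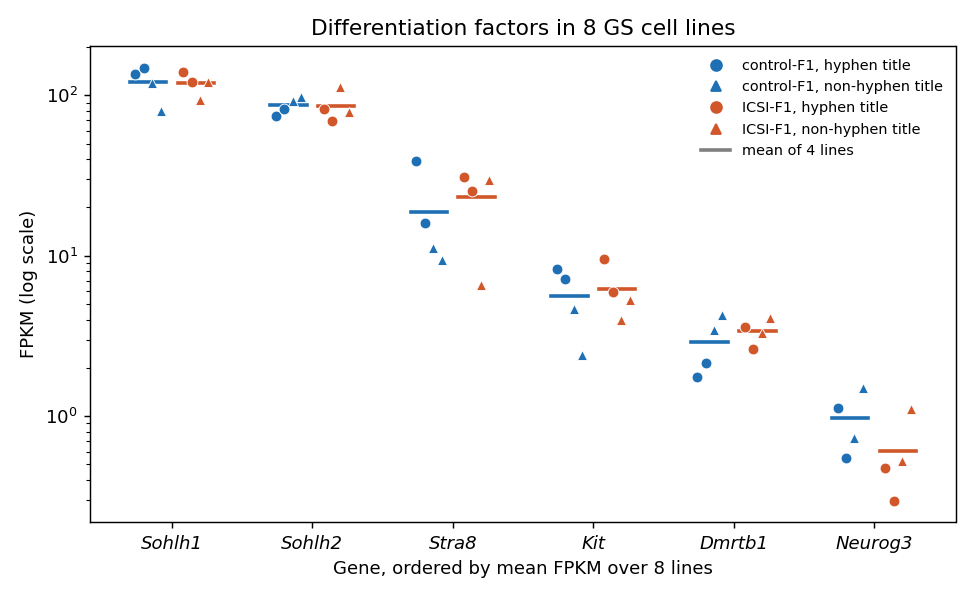
FPKM (log axis) of the 6 genes in 8 GS cell lines, with control-F1 in blue, ICSI-F1 in orange, circles for hyphen titles, triangles for non-hyphen titles and bars for the mean of 4 lines. Levels fall from Sohlh1 (mean 120.0 FPKM) to Neurog3 (mean 0.787 FPKM), and control-F1 and ICSI-F1 lines overlap for every gene.

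Kit (ENSMUSG00000005672) lies on the plus strand of mm10 at chr5:75574916-75656722. Its level was 8.32, 7.17, 4.65 and 2.40 FPKM in control-F1 lines 29, 37, 44 and 45. In ICSI-F1 lines 11, 17, 20 and 21 it was 9.56, 5.90, 3.98 and 5.31 FPKM. These values rest on 945 to 2240 reads per library. The groups overlapped, and the 4 highest lines of the 8 were the 4 with hyphen titles. Control-F1 lines averaged 5.63 ± 2.64 FPKM and ICSI-F1 lines 6.18 ± 2.39 FPKM (SD, n = 4 each). The difference on the log2(FPKM + 1) scale was 0.16 (SE 0.33, 95% interval -0.58 to 0.90; limma adjusted p = 1.00, exact permutation p = 0.743). The ICSI difference was -0.032 in the hyphen and 0.35 in the non-hyphen libraries. Its sign turned to -0.043 without ICSI-F1 line 11 and to -0.13 without control-F1 line 45.

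By title style, Kit averaged 7.73 ± 1.57 FPKM in the hyphen and 4.08 ± 1.25 FPKM in the non-hyphen libraries (SD, n = 4 each), and these did not overlap. Kit was thus lower in the non-hyphen libraries, by a log2 difference of -0.80 (SE 0.21, 95% interval -1.27 to -0.33; limma adjusted p = 0.0351). The exact permutation p was 0.0286 over all assignments of 4 against 4 and 0.0556 when lines were exchanged only within control-F1 and within ICSI-F1, each the smallest its design allows. The difference was -0.99 within control-F1 and -0.61 within ICSI-F1 lines. Kit was the only one of the 5 tested genes that passed the adjusted threshold, and 16.0% of the 12000 tested genes passed it for the title style. Genes that were lower in the non-hyphen libraries, as Kit was, made up 5.76% of the 12000. A share of 26.8% of tested genes did not overlap between the title styles, against 2 of the 6 genes here, Kit and Sohlh1. The call for Kit was lost in 6 of the 8 fits that left out a line. These were the fits without ICSI-F1 lines 11 (adjusted p = 0.108) and 20 (0.0758), and those without control-F1 lines 29 (0.0829), 37 (0.0952), 44 (0.0541) and 45 (0.0596), while the log2 difference stayed between -0.96 and -0.61. The summed Leydig markers moved the same way, at 1.30 to 1.87 FPKM in the hyphen and 0.619 to 1.27 FPKM in the non-hyphen libraries. Of these 4 markers Star gave most of the sum (mean 1.24 FPKM), Cyp17a1 was at 0 in all 8 libraries, Cyp11a1 averaged 0.0428 FPKM and Insl3 0.00763 FPKM. The germ cell markers moved the other way, summing to 699 to 816 FPKM in the hyphen and 901 to 1025 FPKM in the non-hyphen libraries, and 2 of these 4, Ddx4 and Dazl, passed the test with all 8 lines. Of the Sertoli markers, Sox9 was higher and Wt1 lower in the non-hyphen libraries. Without a line, the calls of Ddx4 (highest adjusted p = 0.211), Dazl (0.146) and Sox9 (0.163) were lost in 8 of 8 limma fits, and Wt1 kept its call in 1. The part of these markers in the Kit difference was not tested.

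Stra8 (ENSMUSG00000029848) lies on the plus strand at chr6:34920163-34939344. Its level was 38.7, 15.9, 11.1 and 9.40 FPKM in control-F1 lines 29, 37, 44 and 45. In ICSI-F1 lines 11, 17, 20 and 21 it was 31.0, 25.5, 6.55 and 29.7 FPKM, on 366 to 1847 reads per library over both groups. Stra8 differed most between lines among the 6 genes, with a 5.90-fold range from ICSI-F1 line 20 to control-F1 line 29. The SD of its log2(FPKM + 1) values, 0.88, lay at percentile 99.1 of the tested genes. It lay at percentile 98.6 when only the spread within group and title style was counted. This scale understates the spread of low genes, so these percentiles may be too high. Control-F1 lines averaged 18.8 ± 13.6 FPKM and ICSI-F1 lines 23.2 ± 11.3 FPKM (SD, n = 4 each), and they overlapped. The log2 difference was 0.31 (SE 0.53, 95% interval -0.89 to 1.50; limma adjusted p = 1.00, exact permutation p = 0.657). It was 0.17 in the hyphen and 0.44 in the non-hyphen libraries.

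Stra8 averaged 27.8 ± 9.59 FPKM in the hyphen and 14.2 ± 10.5 FPKM in the non-hyphen libraries (SD, n = 4 each). The difference of -1.07 (SE 0.42) did not pass the threshold (limma adjusted p = 0.105, exact permutation p = 0.0857). The other non-hyphen lines, control-F1 44 and 45 and ICSI-F1 20, were the lowest of all 8, and ICSI-F1 line 21, at 29.7 FPKM, stood among the hyphen lines. Without ICSI-F1 line 21 the difference was -1.51 and passed the threshold (limma adjusted p = 0.0152). That fit called 2691 of the 12000 tested genes for the title style, against 1917 with all 8 lines. In the other fits without a line Stra8 did not pass (limma adjusted p from 0.122 to 0.227).

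Sohlh1 (ENSMUSG00000059625) lies on the minus strand at chr2:25842995-25847248. Its level was 135, 149, 119 and 80.3 FPKM in control-F1 lines 29, 37, 44 and 45. In ICSI-F1 lines 11, 17, 20 and 21 it was 140.2, 122, 93.3 and 122 FPKM. Control-F1 lines averaged 121 ± 29.4 FPKM and ICSI-F1 lines 119 ± 19.4 FPKM (SD, n = 4 each), with a log2 difference of 0.0047 (SE 0.20, 95% interval -0.45 to 0.45; limma adjusted p = 1.00, exact permutation p = 1.00). The hyphen libraries, at 136 ± 11.1 FPKM, did not overlap the non-hyphen libraries, at 104 ± 20.1 FPKM (SD, n = 4 each), although the nearest values, in ICSI-F1 lines 17 and 21, both round to 122 FPKM. The difference between title styles was -0.41 (SE 0.15), with a limma adjusted p of 0.0867. The exact permutation p was 0.0286 over all assignments and 0.0556 within control-F1 and ICSI-F1, each the smallest possible. After quantile normalization it was -0.61 with a limma adjusted p of 0.0258, and without ICSI-F1 line 21 it was -0.51 with a limma adjusted p of 0.0431. The fit without line 21 called 2691 of the 12000 tested genes. Sohlh1 did not pass in the other fits without a line (limma adjusted p from 0.0857 to 0.211).

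Sohlh2 (ENSMUSG00000027794) lies on the plus strand at chr3:55182028-55209957. Its level was 74.8, 82.7, 92.2 and 97.6 FPKM in control-F1 lines 29, 37, 44 and 45. In ICSI-F1 lines 11, 17, 20 and 21 it was 82.7, 69.6, 113 and 79.2 FPKM. It varied least among the 6 genes, with a 1.62-fold range. Control-F1 lines averaged 86.8 ± 10.1 FPKM and ICSI-F1 lines 86.0 ± 18.6 FPKM (SD, n = 4 each), with a log2 difference of -0.029 (SE 0.16, 95% interval -0.38 to 0.32; limma adjusted p = 1.00, exact permutation p = 0.886). By title style its mean was 77.4 ± 6.44 FPKM in the hyphen and 95.4 ± 13.9 FPKM in the non-hyphen libraries, the opposite direction to its partner Sohlh1. This difference of 0.29 (SE 0.12) did not pass (limma adjusted p = 0.126, exact permutation p = 0.0857). Without ICSI-F1 line 21 it was 0.39 (limma adjusted p = 0.0438), in a fit that called 2691 of the 12000 tested genes. Sohlh2 did not pass in the other fits without a line (limma adjusted p from 0.182 to 0.285).

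Dmrtb1 (ENSMUSG00000028610) lies on the minus strand at chr4:107676290-107684230. Its level was 1.76, 2.14, 3.43 and 4.24 FPKM in control-F1 lines 29, 37, 44 and 45. In ICSI-F1 lines 11, 17, 20 and 21 it was 3.60, 2.62, 3.30 and 4.08 FPKM, and the groups overlapped. These values rest on 97 to 390 reads per library. Control-F1 lines averaged 2.89 ± 1.15 FPKM and ICSI-F1 lines 3.40 ± 0.609 FPKM (SD, n = 4 each), a log2 difference of 0.21 (SE 0.21, 95% interval -0.27 to 0.70; limma adjusted p = 1.00, exact permutation p = 0.400). The ICSI difference was 0.47 in the hyphen and -0.044 in the non-hyphen libraries, and the difference between these was -0.52 (SE 0.27, limma adjusted p = 1.00). The non-hyphen libraries, at 3.76 ± 0.466 FPKM, had a higher mean than the hyphen libraries, at 2.53 ± 0.795 FPKM, but the difference of 0.45 (SE 0.15) did not pass (limma adjusted p = 0.0748, exact permutation p = 0.0857).

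Neurog3 (ENSMUSG00000044312) lies on the plus strand at chr10:62133090-62134763. Its level was 1.13, 0.551, 0.730 and 1.49 FPKM in control-F1 lines 29, 37, 44 and 45. In ICSI-F1 lines 11, 17, 20 and 21 it was 0.477, 0.297, 0.521 and 1.11 FPKM. These are few reads, 14 to 110 per library. Its exons overlap those of Fam241b on the opposite strand by 273 bp, and Fam241b reached 17.4 FPKM. One library kit is named in the labels and another in the methods, which leaves strandedness unsettled, so reads of Neurog3 and Fam241b in this stretch may not be separable. Control-F1 lines averaged 0.974 ± 0.419 FPKM and ICSI-F1 lines 0.601 ± 0.352 FPKM (SD, n = 4 each), with overlap. The log2 difference was -0.30 (SE 0.19, 95% interval -0.75 to 0.14, exact permutation p = 0.171), and the limma adjusted p was 1.00 in the fit over all 23964 genes above 0. At this low level the size depends on the scale, and the difference was -0.65 with a pseudocount of 0.1 and -0.53 after rescaling to TPM. It was -0.39 in the hyphen and -0.21 in the non-hyphen libraries. Between title styles the difference was 0.28 (SE 0.18, limma adjusted p = 0.378, exact permutation p = 0.257), and 0.61 with a pseudocount of 0.1 and 0.47 after rescaling to TPM.

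Across the ICSI comparison, 0 of the 5 tested genes passed an adjusted p of 0.05, and the share of all 12000 tested genes that passed was 0% (limma, with 55 genes under an unadjusted p of 0.05). The 55 became 140 with the title style as a covariate, and 30 to 382 in fits without a line, with 382 without ICSI-F1 line 20, 225 without control-F1 line 44, 97 without control-F1 line 45 and 30 without ICSI-F1 line 17, while 0 genes passed after adjustment in each of these fits. For all 6 genes the lines of the groups overlapped, against 0.442% of tested genes whose groups did not. The ICSI difference did not differ by title style for any of the 5 tested genes at the adjusted threshold, and the share of all tested genes that did was 0% (limma interaction term, 147 genes under an unadjusted p of 0.05). With the title style as a covariate, the differences were the same and the 95% intervals narrowed to -0.31 to 0.63 for Kit, -0.64 to 1.25 for Stra8, -0.33 to 0.34 for Sohlh1, -0.30 to 0.25 for Sohlh2 and -0.14 to 0.56 for Dmrtb1 (limma adjusted p = 1.00 for each). For the title style, all 5 tested genes had an unadjusted limma p under 0.05, as did 4248 of the 12000 tested genes. Kit, Stra8 and Sohlh1 had lower means and Sohlh2 and Dmrtb1 higher means in the non-hyphen libraries, and over all tested genes 10.2% passed as higher in them.

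**Figure D3:**
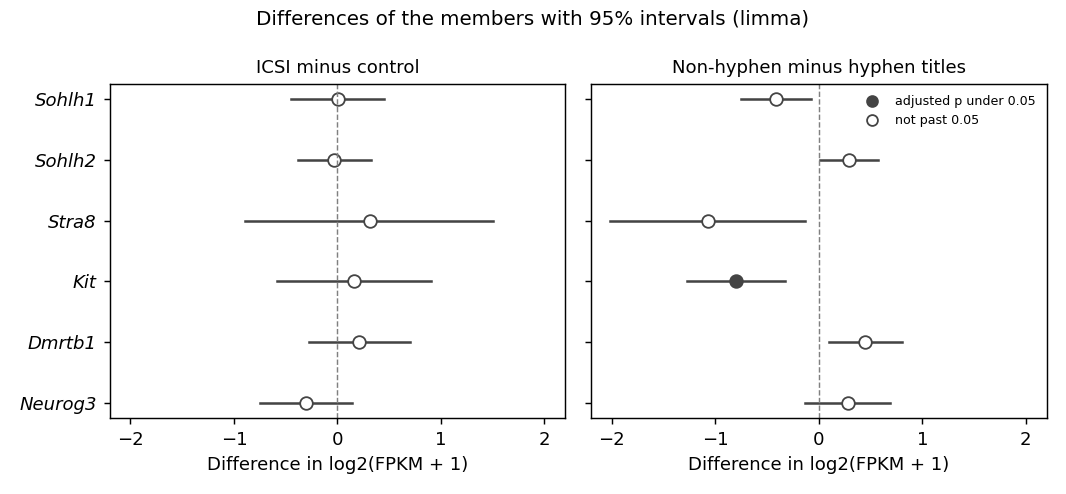
Differences of mean log2(FPKM + 1) with 95% limma intervals for ICSI minus control (left) and non-hyphen minus hyphen titles (right). Filled points passed an adjusted p of 0.05. All ICSI intervals include 0, and for the title style only Kit, at -0.80, is filled.

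The lines did not rank alike for the 6 genes, as the map of deviations by line shows. ICSI-F1 line 20 had the lowest Stra8 and the highest Sohlh2 of the 8 lines. Control-F1 line 45 had the lowest Kit and Sohlh1 and the highest Dmrtb1 and Neurog3. ICSI-F1 line 21 had the highest Kit, Stra8 and Sohlh1 and the lowest Sohlh2 of the 4 non-hyphen lines. Meiosin, the meiotic partner of Stra8 that is listed as Gm4969, followed a similar split of lines. It was 2.59, 2.89, 3.16 and 2.25 FPKM in the hyphen lines (control-F1 29 and 37, ICSI-F1 11 and 17). In the non-hyphen lines (control-F1 44 and 45, ICSI-F1 20 and 21) it was 0.741, 0.989, 0.323 and 2.18 FPKM. As with Stra8, ICSI-F1 line 20 was lowest and ICSI-F1 line 21 was highest among the non-hyphen lines. This order is not particular to the pair, and Utf1, Hes5, Spo11 and Mei1 were among other list genes that showed it. In control-F1 line 37 the pair differed, with Stra8 at its lowest hyphen value, 15.9 FPKM, and Meiosin at 2.89 FPKM.

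**Figure D4:**
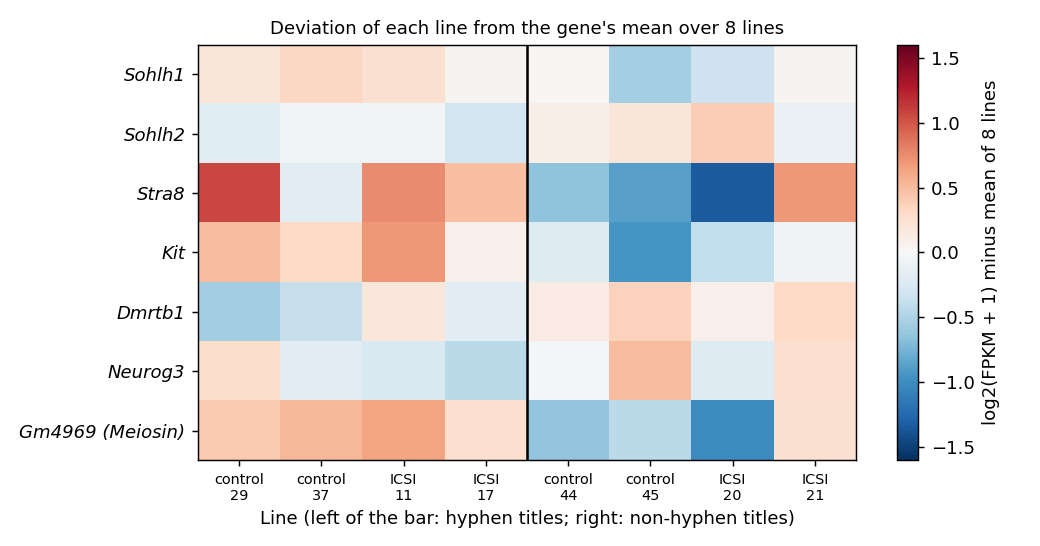
Deviation of log2(FPKM + 1) from the mean of 8 lines (red above, blue below) for the 6 genes and Gm4969 (Meiosin), with hyphen titles left of the black bar and non-hyphen titles right of it. Kit and Sohlh1 are higher in the 4 hyphen lines, and ICSI-F1 line 21 departs from the other non-hyphen lines in Stra8 and Gm4969.

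To describe which genes varied alike between lines beyond the title style, the mean of each style was subtracted and Pearson's r was taken over the 8 lines. With few lines and many genes high values are common, so they are given as a description. The closest to Kit were Gm17657 (r = 0.911), Epb41l4a (r = 0.907) and Eppin (r = 0.906), and Sohlh1 stood at rank 18 of 11999 genes (r = 0.838). For Stra8 they were Slc7a4 (r = 0.987), the ERK kinase gene Mapk3 (r = 0.967) and Slc4a3 (r = 0.961). Gm4969 was at rank 254 for Stra8 (r = 0.774), Kit had r = 0.544 and Sohlh2 had r = -0.798. Sohlh1 was most like Lrch1 (r = 0.976), Aff4 (r = 0.961) and the germ cell bromodomain gene Brdt (r = 0.957). Sohlh2 was most like Ints5 (r = 0.986), Pinx1 (r = 0.983) and Med24 (r = 0.982), and its r with Sohlh1 was -0.353. Dmrtb1 was most like Rnf208 (r = 0.955), Mark4 (r = 0.951) and Med15 (r = 0.948), and Neurog3 most like Kdm5c (r = 0.964), D2hgdh (r = 0.959) and Mzt1 (r = 0.958).

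The genes around the 6 were followed through lists of differentiation, KIT signalling, retinoic acid, bHLH, DMRT, meiotic and undifferentiated spermatogonial genes. In each list 0 tested genes passed for ICSI against control (limma adjusted p = 1.00 for each gene), and 0 had an unadjusted p under 0.05. Over all 12000 tested genes 0 passed and 55 had an unadjusted limma p under 0.05. Counts of 0 in lists of this size are thus near the background and say little about these lists. For the title style, the counts below are read against 16.0% of all tested genes called and a median log2 difference of 0.028 over all tested genes. The number of genes called for the title style depended on single lines. It went from 1917 to 210 without ICSI-F1 line 11, 429 without line 17 and 1209 without line 20, and to 287, 675, 1044 and 1061 without control-F1 lines 37, 44, 29 and 45. Without ICSI-F1 line 21 it rose to 2691. Each of the 21 list genes called with all 8 lines lost its call in the fits without ICSI-F1 lines 11 and 17 and control-F1 lines 37, 44 and 45, and the highest adjusted p over the 8 fits lay between 0.0819 and 0.232.

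Among the other markers of differentiating spermatogonia, 1 of 12 tested genes rose and 3 fell in the non-hyphen libraries, with a median difference of -0.28. Rarg, the retinoic acid receptor gamma gene of spermatogonia, fell by 0.85 on the log2 scale (SE 0.15, limma adjusted p = 0.0134). It was 14.9, 15.4, 19.0 and 15.8 FPKM in the hyphen lines (control-F1 29 and 37, ICSI-F1 11 and 17) and 7.80, 8.13, 7.01 and 11.9 FPKM in the non-hyphen lines (control-F1 44 and 45, ICSI-F1 20 and 21). The groups did not overlap, and ICSI-F1 line 21 was again the highest of the non-hyphen lines. Gm4969 (Meiosin) fell by 0.92 (limma adjusted p = 0.0394) and the de novo DNA methyltransferase gene Dnmt3b by 0.42 (limma adjusted p = 0.0469). Ccnd2, a cyclin gene, rose by 0.74 (limma adjusted p = 0.0272). Dmrt1, a regulator of the mitosis-to-meiosis decision, averaged 159 FPKM with a difference of 0.025, and the retinoic acid-binding protein gene Crabp1 averaged 126 FPKM with a difference of -0.44 that did not pass.

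Of the retinoic acid receptor and metabolism genes, 0 of 13 tested rose and 2 fell, with a median of -0.14. Beside Rarg, these included Cyp26b1, which encodes an enzyme that degrades retinoic acid and which fell by 0.62 (limma adjusted p = 0.0448). Of the KIT ligand and signalling genes, 2 of 20 tested rose and 0 fell, with a median of 0.003. These were the ERK pathway inhibitor gene Spred1 (0.71, limma adjusted p = 0.0126) and the adaptor gene Grb2 (0.38, limma adjusted p = 0.0369). Kitl itself averaged 1.72 FPKM and differed by 0.08 between the title styles.

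Of the bHLH partners and inhibitors, 1 of 9 tested rose and 1 fell. Id4, an inhibitor of bHLH factors that marks spermatogonial stem cells, rose by 1.11 (limma adjusted p = 0.0210), and the Notch target gene Hes5 fell by 0.69 (limma adjusted p = 0.0425). Tcf3, the E protein gene whose product pairs with tissue bHLH factors, averaged 73.4 FPKM and differed by 0.027. Among the relatives of Dmrtb1, Dmrt2 rose by 1.76 (limma adjusted p = 0.0115) and was the only one of the 4 tested that passed.

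Of the meiotic entry genes, 3 of 15 tested rose and 1 fell, and the median was -0.21. The risers were the cohesin gene Smc1b (0.71, limma adjusted p = 0.00828) and the synaptonemal complex genes Sycp3 (0.64, limma adjusted p = 0.0173) and Sycp1 (0.55, limma adjusted p = 0.0263), whereas Meiosin was the one that fell. The cohesin gene Stag3 averaged 89.1 FPKM and differed by -0.41, which did not pass (limma adjusted p = 0.105). Of the undifferentiated spermatogonial genes, 8 of 20 rose and 1 fell, with a median of 0.40. Lhx1 (1.66, limma adjusted p = 0.00819), Eomes (1.34, limma adjusted p = 0.0160) and Etv5 (1.16, limma adjusted p = 0.00792), genes of the GDNF-responsive stem cell state, were among those that rose, as was Pou3f1 (0.61, limma adjusted p = 0.0146). Utf1, which encodes a chromatin-associated factor of undifferentiated spermatogonia, was the gene that fell, by 1.37 (limma adjusted p = 0.0203). Bcl6b and Egr4 had the highest means of this list, 127 and 105 FPKM, and their differences of 0.74 and -0.38 did not pass. The split of calls for the title style moved with scaling, from 1226 higher and 691 lower to 1001 higher and 970 lower after quantile normalization.

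**Figure D5:**
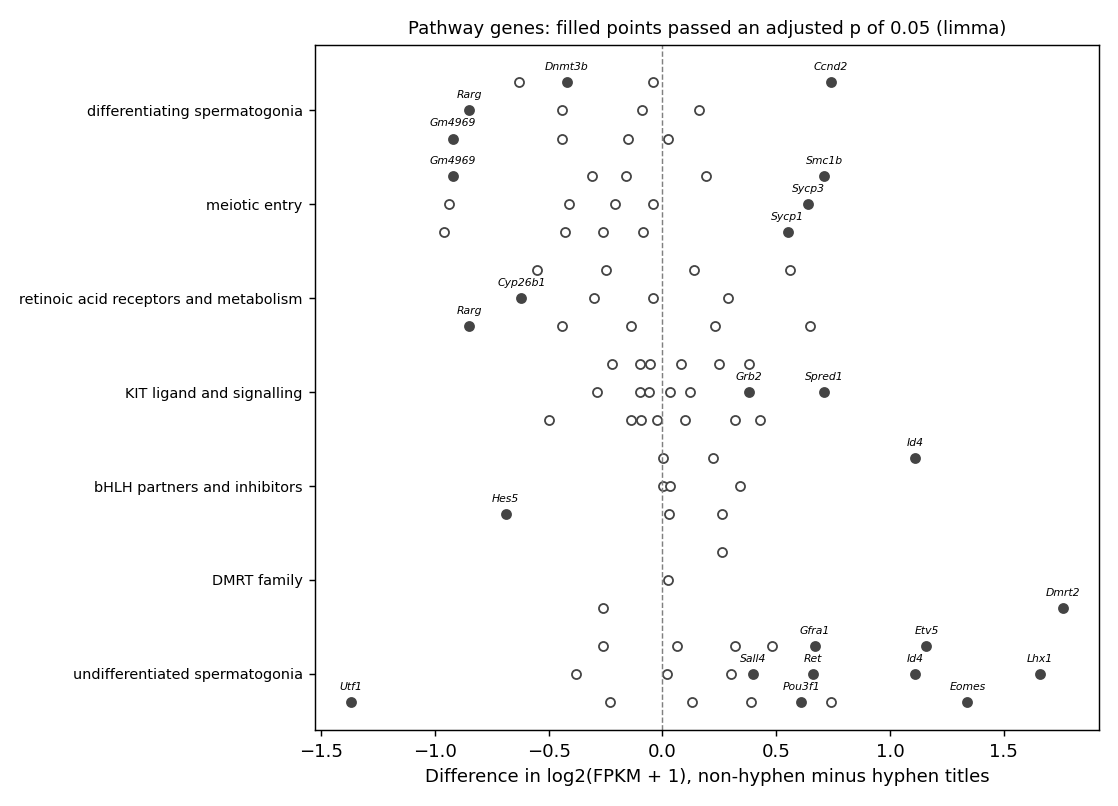
Difference of mean log2(FPKM + 1), non-hyphen minus hyphen titles, for each tested gene of 7 lists, with filled and named points for genes past an adjusted limma p of 0.05. Called undifferentiated spermatogonial genes lie mostly above 0 (8 of 9), and 3 of the 4 called differentiation genes lie below 0.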

How the data were processed

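RNA-seq was made from 8 GS cell lines. The authors trimmed reads with cutadapt, mapped them to mm10 with STAR, counted them per gene with HTSeq and deposited FPKM values. The study's methods name the GENCODE M25 annotation. Per the labels the versions of these tools differed between the hyphen and non-hyphen libraries, whereas the study's methods name a single version of each. The deposited table also holds the authors' own log2 fold change and adjusted p-value, which were not used. Coordinates came from an earlier GENCODE release on mm10, promoter windows from RefSeq (GRCm38.p6; all 6 symbols matched).

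Genes averaging 1 FPKM or more (12000) were fitted with limma 3.58.1 (R 4.3.3) on log2(FPKM + 1), with an eBayes trend, two-sided, and Benjamini-Hochberg adjustment over all genes tested at 0.05. Fold changes on this scale understate the change of low genes. The group was the only term for ICSI, and the title style fit kept the group as a term. Neurog3 was read from a fit without the filter. Single genes were also compared by exact two-sided permutation tests of the 70 assignments of lines. The scripts were tested on simulated data. For the ICSI fit these held large changes and no title style difference, so they do not show how small differences would fare. Reads were recovered from the FPKM steps: 98.2% of tested genes gave whole numbers in all 8 libraries within 0.01, and limma-voom was run on these. Totals of 24218897 to 43413243 reads put 3 reads of a 1 kb gene at 0.068 to 0.12 FPKM, a floor for counting error only. Alternatives were other pseudocounts, scalings and filters, the title style as a covariate, and each line left out. The 6 genes, the lists and the tests were chosen with earlier results of these data known. Named list genes were taken from up to 4 with the smallest p among those called per list and the 2 with the highest mean. Not all of these were described. Among those left out were Pik3cd, Pik3r2, Hes1, Rxra and Dmrtc2, none of them called for the title style. Likeness was named for the 3 highest r. Kitl and Utf1 were named after their values were seen. One item of the KIT signalling list is not reported here, and its counts leave it out.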

Additional observations from a re-analysis of the deposited data

Results flagged for a closer look

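Of 68 groups of 4 lines checked for a line far from the others, 2 stood out, where chance gives about 1 in 20. Stag3, a meiotic cohesin gene, was 58.5 FPKM in ICSI-F1 line 20 and between 104 and 106 FPKM in ICSI-F1 lines 11, 17 and 21. Each group of 4 mixes the title styles, and line 20 has a non-hyphen title. The non-hyphen control-F1 lines 44 and 45 were also low, at 68.7 and 76.8 FPKM, while non-hyphen ICSI-F1 line 21 was at 105 FPKM. The hyphen control-F1 lines 29 and 37 were at 92.6 and 102 FPKM. Dmrt1 was 171 FPKM in control-F1 line 37 and between 152 and 155 FPKM in control-F1 lines 29, 44 and 45. None of the 6 differentiation genes had such a line in either group.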

How the results depend on the processing

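Of 148 alternative values for single genes, 128 kept their direction and side of the threshold. In 6, all fits without a line, Kit lost its call for the title style. In 4, a title style difference of Stra8, Sohlh1 or Sohlh2 gained a call. The 10 that changed sign were small ICSI differences, none called. Without single lines the Kit difference reached -0.043 and -0.13, the Sohlh1 difference -0.077, -0.011, -0.0096 and -0.18, and the Sohlh2 difference 0.065, 0.0034, 0.0026 and 0.03. Over all fits that left out a line, the ICSI difference ranged from -0.13 to 0.36 for Kit, 0.069 to 0.80 for Stra8, -0.18 to 0.12 for Sohlh1, -0.16 to 0.065 for Sohlh2, 0.065 to 0.37 for Dmrtb1 and -0.44 to -0.18 for Neurog3. The title style difference ranged from -0.96 to -0.61 for Kit, -1.51 to -0.70 for Stra8, -0.51 to -0.27 for Sohlh1, 0.18 to 0.39 for Sohlh2, 0.35 to 0.57 for Dmrtb1 and 0.17 to 0.40 for Neurog3. For Sohlh1 it was -0.61 after quantile normalization. The genes called for the title style numbered 210 to 2691 in the fits without a line and 1255 without the filter, against 1917. Without the filter 1 gene was called for ICSI. In limma-voom on recovered reads, chosen after seeing the data for the single genes, Kit differed by -1.04 between title styles (adjusted p = 0.0322), and 817 genes were called higher and 918 lower. The length of the longest transcript, also chosen after seeing the data, raised the Kit to Dmrtb1 difference to 1.23 and lowered the Stra8 to Kit difference to 0.87. Where not stated above, the cause was not tested. No paired analysis was possible because the control-F1 and ICSI-F1 lines share no replicate number. Neurog3 had as few as 14 reads in a library, so depth limits its values. Its ICSI difference was -0.65 and its title style difference 0.61 with a pseudocount of 0.1, which also raised the Dmrtb1 to Neurog3 difference from 1.21 to 1.95.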
